A study of Homo sapiens with 9 samples.

Results

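The replication-dependent histone genes encode the H1, H2A, H2B, H3 and H4 proteins that package newly made DNA. Members were all probe sets of the array whose annotated gene symbols belong only to these families (H1-1 to H1-5 and the H2AC, H2BC, H3C and H4C series), a rule that used no expression value. It found 70 of the 33297 probe sets, with 5 for H1, 16 each for H2A and H2B, 13 for H3, 17 for H4 and 3 shared by 2 families. Of these, 56 carried 1 symbol and 14 several. They cover 67 of the 20172 genes annotated on the array, 56 of them with a probe set of their own. In 4 groups, together 8 probe sets, the values were identical on all 9 arrays, which leaves 66 distinct profiles. The probe sets of H4C14 and of H4C15 that carry 1 symbol form 1 of these groups, so their values are not separate measurements. Histone genes of a family are near-identical in sequence, so a probe set with 1 symbol may still take signal from its relatives.

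RNA came from NCI-H295R, a human adrenocortical carcinoma cell line that makes adrenal steroids, hybridised to GeneChip Human Gene 1.0 ST arrays. All cells were first plated for 24 h in growth medium. They were then kept for 48 h in serum-free medium with 10 mM metformin (starvation with metformin), in serum-free medium without metformin (starvation) or in normal growth medium, with 3 arrays in each of the 3 groups. Metformin is a biguanide used against diabetes that inhibits complex I of the respiratory chain. Starvation took away the insulin, transferrin and selenium supplement along with the serum, and the metformin group shares this removal with the starvation group, so its comparison with normal growth joins both changes. The series text speaks of 3 independent experiments over these conditions, but does not say which arrays belong to the same experiment. The p values therefore reflect array-to-array spread, which can be technical in part.

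Expression is given as log2 values. Array medians lay between 6.04 and 6.16, with 3 arrays per group limiting the precision. Of 9 adrenocortical genes, 7 had a mean above the lowest array median, among them NR5A1, the steroidogenic transcription factor SF-1. With metformin 1 of the 9 was called lower and 1 higher than in starvation (adjusted p under 0.05, limma). Against normal growth these were 3 and 1. Over the array 1.98% and 2.3% were called lower and higher against starvation, and 4.44% and 4.63% against normal growth. Markers of fibroblasts, endothelial, immune and chromaffin cells were mostly dim, with 7 of 10, 7 of 8, 5 of 7 and 3 of 4 below the lowest array median, and none was called in any comparison.

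Transcripts of this gene class are made in S phase, when DNA is copied, and are degraded when replication stops. They mostly lack a poly(A) tail and end in a stem-loop that is bound by SLBP. NPAT, a target of cyclin E and CDK2, drives their transcription at the histone locus body, and U7 snRNP with FLASH cuts their 3′ ends. In a bulk sample, fewer cells in S phase and less histone mRNA per cell cannot be told apart. How the cDNA was primed is not given in the sources used here, so the values are signals of the array and no measure of the tailed share of a transcript.

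Histone signals were lower with metformin than in starvation alone. In this comparison 49 of 70 probe sets were called lower and 0 higher, where called means an adjusted p under 0.05 by limma over all probe sets, with any fold. Over the whole array 1.98% of probe sets were called lower and 2.3% higher. At an unadjusted p under 0.05, 66 members were lower and 0 higher (8.63% and 11.3% of all probe sets). At least a 1.5-fold decrease was called for 32 members (0.811% of all probe sets) and at least a 2-fold decrease for 8 (0.171% of all probe sets). The median log2 change was -0.58 over the members, ranging from -1.42 to 0.10, and -0.01 over the array. The log2 change was negative for 69 of 70, against 51.7% of all probe sets. In 64 members all metformin arrays lay below all starvation arrays, against 11.4% of all probe sets. Counting identical profiles once gave 46 of 66. Among probe sets brighter than the highest array median, 49 of 64 members were called lower, with a background of 3.7%.

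The decrease was seen on each metformin array. Relative to the mean of the starvation arrays, the median member deviated by -0.65 on metformin array A, by -0.52 on array B and by -0.62 on array C. The starvation arrays lay at 0.01, -0.06 and 0.06, and the normal growth arrays at 0.07, 0.04 and 0.02. Array B of the metformin group was thus the least shifted. Over all probe sets the median deviations on metformin arrays A, B and C were -0.01, -0.01 and 0.01. The calls depended on which arrays entered the fit. Without starvation array A, B or C, or without metformin array A, 0 members passed and 0 probe sets of the whole array passed, with 62, 65, 63 and 63 members lower at an unadjusted p under 0.05 and lowest adjusted p values among the members of 0.102, 0.0564, 0.107 and 0.0525 (limma). Without metformin array B 31 members passed, and without metformin array C 37. Over the whole array 714 and 1189 of 33297 probe sets passed in these 2 fits, in either direction. The methods' t-test on all 6 arrays, adjusted in the same way, called 27 members and 650 probe sets of the whole array. The median log2 change stayed between -0.63 and -0.54 in these fits, and each of the 70 members kept its sign.

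**Figure D1:**
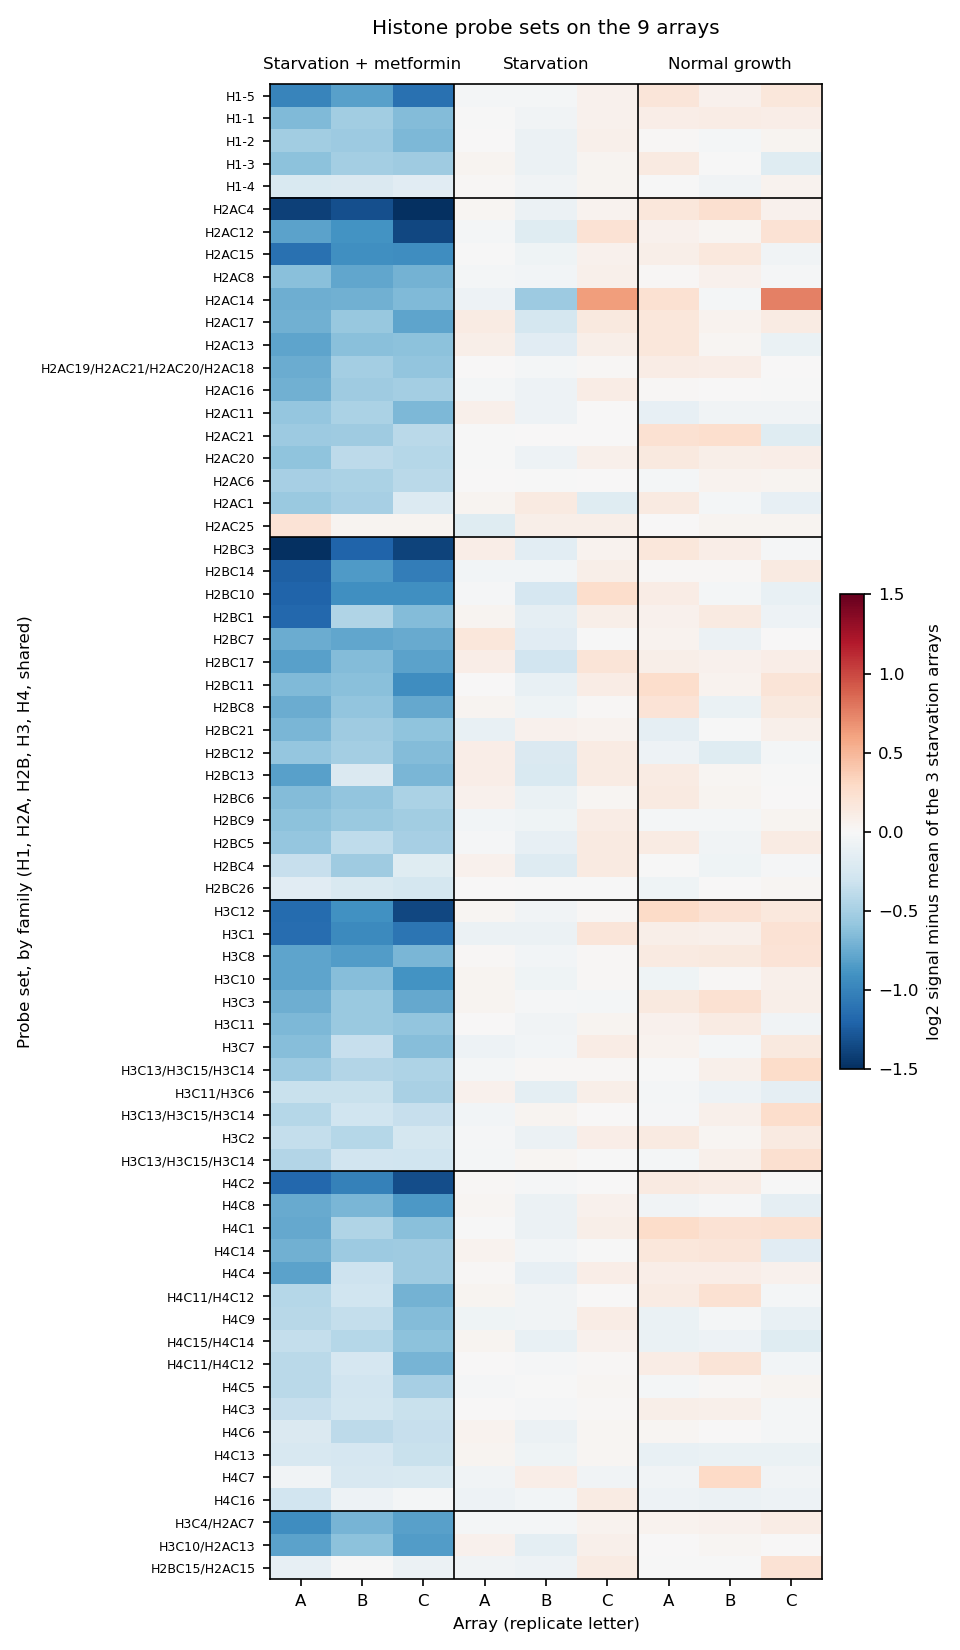
Heat map of the 66 distinct profiles (rows, by family and then by change) on the 9 arrays (columns, 3 per group); colour is log2 signal minus the mean of the starvation arrays. The metformin columns are lower for most rows, with median deviations of -0.65, -0.52 and -0.62, while the starvation and normal growth columns lie close to 0.

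The largest decreases were those of an H2A and an H2B gene. H2A and H2B form the dimers that flank the H3-H4 tetramer in the nucleosome. Of the H2A probe sets 13 of 16 were called lower (median log2 change -0.61), and of the H2B probe sets 12 of 16 (median -0.65). H2AC4 had log2 signals of 7.96, 8.04 and 7.83 with metformin, against 9.39, 9.27 and 9.41 in starvation. No metformin array came near a starvation array, and the decrease was 2.67-fold (log2 change -1.42, SE 0.077, limma adjusted p = 0.0107). H2BC3 had log2 signals of 8.18, 8.52 and 8.34 with metformin, against 9.83, 9.57 and 9.78 in starvation, a 2.60-fold decrease (log2 change -1.38, SE 0.11, limma adjusted p = 0.0119). H2AC15 had log2 signals of 8.37, 8.57 and 8.56 with metformin, against 9.49, 9.43 and 9.56 in starvation, with a log2 change of -0.99. All of these groups were apart. Another probe set that carries H2AC15, shared with H2BC15, was not called (log2 change -0.08, limma adjusted p = 0.648). H2AC8 fell by 0.71, H2BC8 by 0.70, H2BC7 by 0.76 and H2BC17 by 0.76 on the log2 scale. Other members of these families with at least a 2-fold decrease were H2BC14, H2AC12 and H2BC10, with log2 changes of -1.04, -1.02 and -1.01. These 3 fall outside the rule for named genes and were picked once their values were known. Members of these families that were not called were H2AC1, H2AC14 and H2AC25 for H2A, and H2BC1, H2BC4, H2BC13 and H2BC26 for H2B, with limma adjusted p values between 0.0829 and 0.647.

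The H3 family, which carries many of the modified lysines of chromatin, had 11 of 13 probe sets called lower (median log2 change -0.54). H3C12 had log2 signals of 8.63, 8.88 and 8.42 with metformin, against 9.82, 9.74 and 9.81 in starvation. The log2 change was -1.14 (SE 0.12, limma adjusted p = 0.0165), and the metformin arrays spread more widely than the starvation arrays. H3C1 had log2 signals of 8.09, 8.28 and 8.13 with metformin, against 9.14, 9.14 and 9.41 in starvation, a log2 change of -1.06. H3C8, H3C3 and H3C11 fell by 0.77, 0.68 and 0.61 on the log2 scale. The smallest H3 decrease was that of a probe set shared by H3C13, H3C15 and H3C14, with a log2 change of -0.34 (SE 0.064, limma adjusted p = 0.0476). H3C2 and a probe set shared by H3C11 and H3C6 were not called, with log2 changes of -0.35 and -0.39 (limma adjusted p = 0.0648 and 0.0718). Of the probe sets shared by H3 or H2B genes with H2A genes, that of H3C4 and H2AC7 had a log2 change of -0.81 and that of H3C10 and H2AC13 of -0.75, and both were called. That of H2BC15 and H2AC15 was not, with a log2 change of -0.08 (limma adjusted p = 0.648).

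Fewer probe sets passed for H4, the partner of H3 in the tetramer, with 7 of 17 called lower, although all 17 had a negative change (median log2 change -0.47). Whether the families differ in their change was not tested. H4C2 had log2 signals of 9.41, 9.57 and 9.26 with metformin, against 10.60, 10.56 and 10.59 in starvation. The starvation arrays lay within a narrow band, and the decrease was 2.25-fold (log2 change -1.17, SE 0.088, limma adjusted p = 0.0119). H4C8 had log2 signals of 9.56, 9.63 and 9.45 with metformin, against 10.34, 10.22 and 10.38 in starvation, a log2 change of -0.77. H4C1 fell by 0.61 on the log2 scale. The 10 probe sets that were not called had limma adjusted p values between 0.0507 and 0.501, the lowest being that of the identical pair shared by H4C15 and H4C14 (log2 change -0.47). H4C7, the dimmest member, had log2 signals of 3.73, 3.54 and 3.55 with metformin, against 3.73, 3.87 and 3.73 in starvation, below all array medians.

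The linker histones of the H1 family bind DNA between nucleosomes, and 4 of 5, all but H1-4, were called lower (median log2 change -0.58). H1-5 had log2 signals of 9.43, 9.62 and 9.31 with metformin, against 10.40, 10.39 and 10.50 in starvation. This was a 1.96-fold decrease (log2 change -0.97, SE 0.091, limma adjusted p = 0.0145). H1-1 had log2 signals of 9.58, 9.72 and 9.59 with metformin, against 10.24, 10.18 and 10.30 in starvation, a log2 change of -0.61. H1-4, the brightest member, had log2 signals of 12.73, 12.74 and 12.78 with metformin, against 12.96, 12.90 and 12.99 in starvation. Its groups did not overlap, but the log2 change of -0.20 (SE 0.053) had a limma adjusted p of 0.101.

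**Figure D2:**
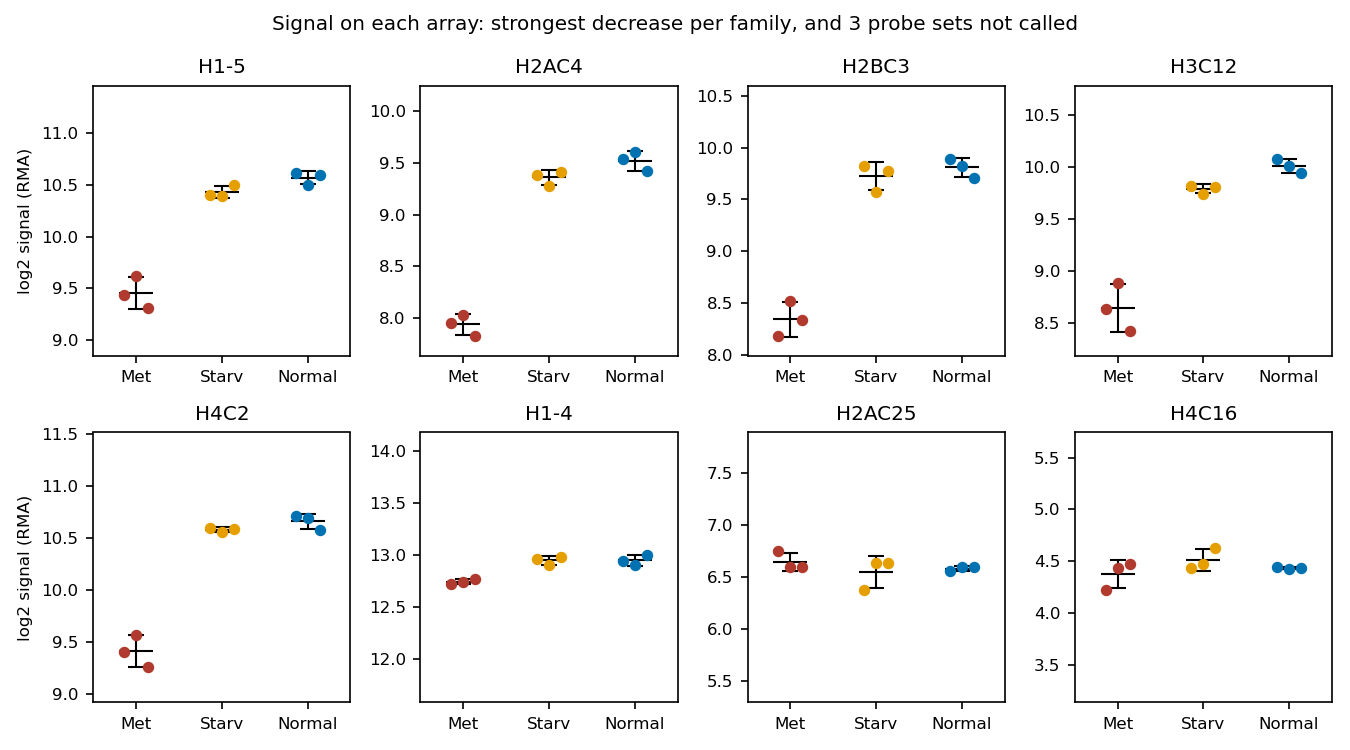
log2 signal (y axis, every panel spanning the same range) on each array for the strongest decrease of each family (H1-5, H2AC4, H2BC3, H3C12, H4C2) and for 3 probe sets that were not called (H1-4, H2AC25, H4C16); points are arrays and bars are means with SD (n = 3). Metformin (Met) lies left of starvation (Starv) and normal growth, and in the first 5 panels all of its arrays lie below the others.

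Location and signal of the members were examined next. On chromosome 6, where most of these genes lie, 38 of 54 probe sets were called lower (median log2 change -0.61). In the chromosome 1 cluster that holds H2AC20 and H2BC21, 11 of 13 were called (median -0.48). The 3 members outside these clusters were not called. H2AC25, on the far end of chromosome 1, had log2 signals of 6.75, 6.59 and 6.59 with metformin, against 6.37, 6.63 and 6.64 in starvation, with overlapping groups. Its neighbour H2BC26 had log2 signals of 6.56, 6.50 and 6.46 with metformin, against 6.73 on each starvation array, and a log2 change of -0.22 (limma adjusted p = 0.0829). H4C16 on chromosome 12 had log2 signals of 4.22, 4.43 and 4.48 with metformin, against 4.43, 4.47 and 4.63 in starvation. Some of these values were exactly equal between arrays. Examples are 6.59223 for H2AC25 on metformin arrays B and C and 6.72763 for H2BC26 on starvation arrays B and C. H4C16 had 4.43318 on both metformin array B and starvation array A. Equal values also occurred in members of the clusters. H3C1 had 9.1374 on starvation arrays A and B, and H4C7 had 3.73009 on metformin array A and starvation array A. Close values in such members are therefore no sure measure of replicate spread. H2AC25 was the member with the only positive change (log2 change 0.10, SE 0.096).

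Calls also varied with the signal of the probe set, which is no measure of transcript amount between probe sets. By mean log2 signal, 0 of 6 members under 6 were called, 10 of 17 between 6 and 8, 14 of 17 between 8 and 10, 15 of 17 between 10 and 11, and 10 of 13 above 11. Of the 6 dim members 4 had metformin arrays below all starvation arrays, with a median log2 change of -0.35. Over the 66 profiles, which share arrays and in part probes, the change was little related to the signal (Pearson r = -0.12, Spearman rho = 0.00 between mean signal and log2 change).

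**Figure D3:**
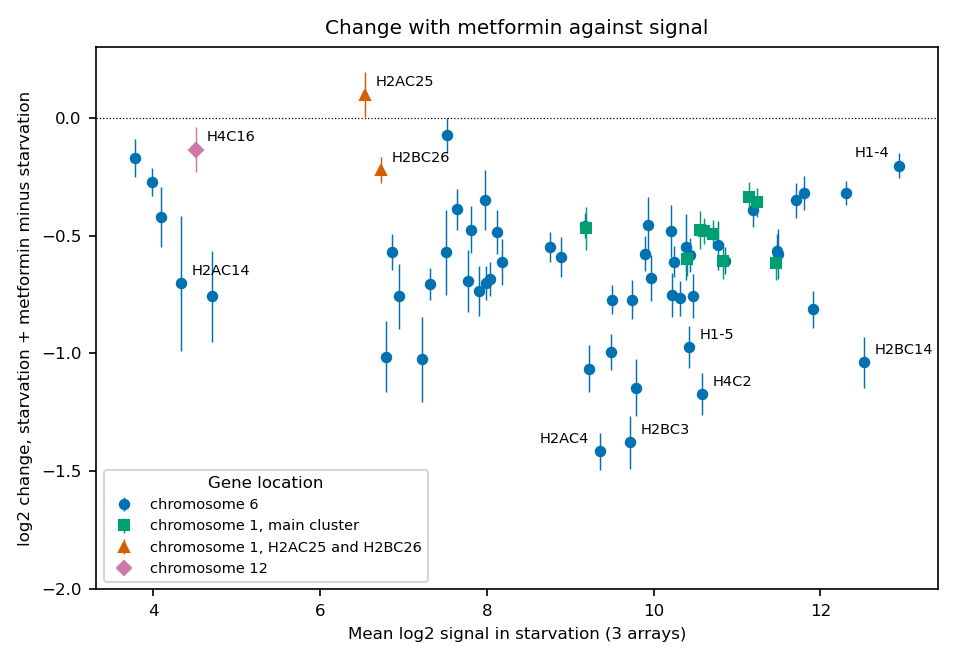
log2 change, starvation with metformin minus starvation (y axis, bars are standard errors from limma), against mean log2 signal on the starvation arrays (x axis) for the 66 distinct profiles; marker and colour give the location of the gene. Most points lie below 0 at every signal, and the points close to 0 include chromosome 6 probe sets such as H1-4 (-0.20) beside H2AC25, H2BC26 and H4C16.

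The promoters of these genes were read to set the expression changes beside known elements. The sequences are RefSeq bases of GRCh38.p14, and 62 of the 67 genes had an entry. H2AC12, H3C11, H3C12, H4C1 and H4C3 had none. The letter strings below were searched separately on both strands over the 250 bases before the start of each gene, and matches may overlap. The octamer ATTTGCAT, bound by POU factors such as OCT1, is a classical H2B promoter element. CCAAT is bound by NF-Y, and TATAAA is the TATA box. Shown are the 150 bases before the start, 5′ to 3′ on the strand of the gene, for the strongest decrease with an entry in each family (H3C1 for H3) and for 2 members outside the clusters that were not called, with every match to these strings or to their reverse complements in capitals.
H2AC4 (chr6:26033619-26033768, minus strand): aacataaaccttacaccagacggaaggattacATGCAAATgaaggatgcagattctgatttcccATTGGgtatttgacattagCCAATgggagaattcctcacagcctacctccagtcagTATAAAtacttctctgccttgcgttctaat
H2BC3 (chr6:26043714-26043863, minus strand): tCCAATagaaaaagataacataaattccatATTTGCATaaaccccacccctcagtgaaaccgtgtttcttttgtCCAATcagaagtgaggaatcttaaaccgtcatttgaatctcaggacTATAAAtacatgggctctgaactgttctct
H4C2 (chr6:26027284-26027433, minus strand): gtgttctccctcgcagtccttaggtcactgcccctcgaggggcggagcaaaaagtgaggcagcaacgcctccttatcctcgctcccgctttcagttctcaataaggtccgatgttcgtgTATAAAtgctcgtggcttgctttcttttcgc
H3C1 (chr6:26020301-26020450, plus strand): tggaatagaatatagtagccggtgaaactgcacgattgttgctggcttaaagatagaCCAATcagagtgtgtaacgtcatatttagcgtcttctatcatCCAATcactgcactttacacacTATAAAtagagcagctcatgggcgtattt
H1-5 (chr6:27867589-27867738, minus strand): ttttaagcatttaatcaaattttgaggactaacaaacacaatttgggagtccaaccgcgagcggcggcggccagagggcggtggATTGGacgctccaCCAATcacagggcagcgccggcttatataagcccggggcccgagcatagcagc
H2AC25 (chr1:228457874-228458023, minus strand): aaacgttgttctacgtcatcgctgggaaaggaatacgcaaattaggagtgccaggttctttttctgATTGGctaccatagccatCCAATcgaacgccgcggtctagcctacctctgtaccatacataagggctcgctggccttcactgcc
H4C16 (chr12:14771132-14771281, minus strand): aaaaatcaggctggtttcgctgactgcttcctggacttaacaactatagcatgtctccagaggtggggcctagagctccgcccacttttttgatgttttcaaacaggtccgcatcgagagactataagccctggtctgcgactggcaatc

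In the sequences of H2AC4 and H2BC3, which fell the most, the octamer lay upstream of at least 1 CCAAT match and of a TATAAA whose first letter was 30 bases before the start. H4C2 held TATAAA at 31 bases and H3C1 at 29 bases, and neither held the octamer. The printed bases of H2AC25 held CCAAT matches only, and those of H4C16 held no match. Over the searched windows the octamer was found in 11 of 16 H2A genes, 13 of 17 H2B genes, 1 of 11 H3 genes, 0 of 5 H1 genes and 0 of 13 H4 genes, against 1.63% of all 35116 promoters. CCAAT was found in 52 of 62 genes (32.0% of all promoters), in every H1, H2A, H2B and H3 gene with an entry and in 3 of 13 H4 genes. TATAAA was found in 42 of 62 (10.7% of all promoters). Among genes with a probe set of their own, the octamer was present in 19 of 36 with a decrease called after metformin and in 4 of 15 without, CCAAT in 31 of 36 and 12 of 15, and TATAAA in 23 of 36 and 11 of 15. These counts were not tested, and they mix the families. They also take H4C14 and H4C15 as separate genes, although their probe sets have identical values. H4, H1 and H3, with the octamer in 0 of 13, 0 of 5 and 1 of 11 genes, had 7 of 17, 4 of 5 and 11 of 13 probe sets called lower. H2A and H2B, with the octamer in 11 of 16 and 13 of 17 genes, had 13 of 16 and 12 of 16 called. Octamer and family cannot be told apart here. Neighbouring genes share part of their windows, so that a match can count for both. RefSeq gives H3C4 the same start as H2AC7, so their windows are the same bases, and the only octamer counted for H3 is the one counted for H2AC7.

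Many H2A and H2B genes lie head to head and share the DNA between their starts. Among genes with probe sets of their own, 9 such pairs had starts 215 to 248 bases apart. Both genes were called lower in 4 of these pairs, 1 gene in 3 pairs and neither in 2. H3C7 and H2BC9, with starts 979 bases apart, were both called as well. H2BC8 and H2AC8 had log2 changes of -0.70 and -0.71, and H2AC17 and H2BC17 of -0.69 and -0.76. The widest gap was that of H2AC1 and H2BC1, at -0.42 and -0.76, dim members that were not called. H2AC14 and H2BC14 had changes of -0.70 and -1.04. H2AC14 is itself dim, with starvation arrays at 4.25, 3.78 and 4.96.

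No histone probe set passed the test in starvation alone against normal growth. In this comparison 0 of 70 probe sets were called by limma, with 0.108% called lower and 0.042% called higher over the array. At an unadjusted p under 0.05, 5 were lower and 0 higher (4.74% and 3.3% over the array), and the methods' t-test also called 0. The median log2 change was -0.06, ranging from -0.32 to 0.12, with a median SE of 0.068, and 52 of 70 members had a negative change, against 50.5% of all probe sets. The median was -0.02 without starvation array B and -0.03 without normal growth array B. The smallest p values were those of H3C12, H4C1, H3C8 and H3C3. H3C12 had log2 signals of 9.82, 9.74 and 9.81 in starvation, against 10.07, 10.01 and 9.94 under normal growth (log2 change -0.22, limma adjusted p = 0.298). H4C1 had log2 signals of 8.18, 8.10 and 8.28 in starvation, against 8.46, 8.40 and 8.41 under normal growth (log2 change -0.24, limma adjusted p = 0.303). In both, the starvation arrays lay below all normal growth arrays. This held for 8 members, against 7.62% of all probe sets, and 1 member, H4C13, lay above (5.4% of all probe sets). H3C8 and H3C3 had log2 changes of -0.16 and -0.15.

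Metformin in serum-free medium was also compared with normal growth. The starvation and normal growth arrays each serve in 2 of the 3 comparisons, as do the metformin arrays, so the comparisons are not independent. Here 56 of 70 probe sets were called lower and 0 higher by limma, against 4.44% and 4.63% over the array. At an unadjusted p under 0.05, 66 were lower and 0 higher (11.2% and 11.7% over the array). The median log2 change was -0.61, ranging from -1.58 to 0.07, and 11 members had at least a 2-fold decrease (0.276% of all probe sets). By family, 4 of 5 H1, 14 of 16 H2A, 12 of 16 H2B, 13 of 13 H3 and 11 of 17 H4 probe sets passed. H2AC4 had log2 signals of 7.96, 8.04 and 7.83 with metformin, against 9.53, 9.60 and 9.42 under normal growth (log2 change -1.58, limma adjusted p = 0.00221). It had the largest decrease in this comparison too. H2BC3, H3C12 and H4C2 had log2 changes of -1.46, -1.36 and -1.25, and H1-5 of -1.11. H1-4, H2AC25, H2BC26 and H4C16 did not pass, with limma adjusted p values of 0.0683, 0.603, 0.0741 and 0.739. Without normal growth array A, B or C 29, 25 and 35 members passed. Over the whole array 443, 439 and 511 of 33297 probe sets passed in these fits, in either direction.

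**Figure D4:**
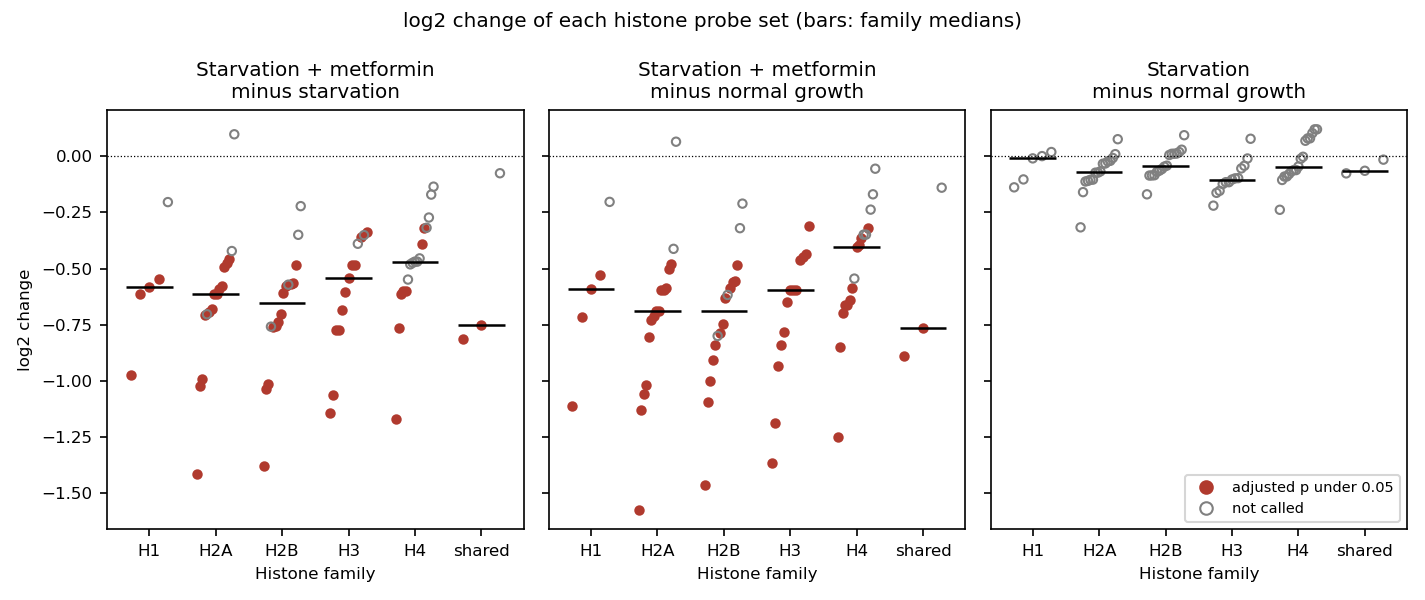
log2 change (y axis) of each of the 70 probe sets by family (x axis) for starvation with metformin minus starvation, starvation with metformin minus normal growth, and starvation minus normal growth; filled points passed an adjusted p under 0.05 (limma), open points did not, and bars are family medians. Both comparisons with metformin reach below -1, while the changes in starvation alone lie between -0.32 and 0.12.

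Histone genes outside the member families, listed here as replication-independent, were set beside these genes. Whether each of them is free of a tie to S phase was not tested. Of 15 measured, 2 were called lower with metformin than in starvation and 0 higher, with a median log2 change of -0.17. Over the array 1.98% were called lower and 2.3% higher. The list holds 6 genes known from germ cells (H1-6, H1-7, H1-8, H3-4, H2BW1 and H2BW2), none of which was called (median -0.21), and among the other 9 genes 2 were called lower (median -0.08). H2AX, the variant phosphorylated at DNA breaks, had log2 signals of 9.08, 9.04 and 9.08 with metformin, against 9.37, 9.45 and 9.37 in starvation (log2 change -0.33, limma adjusted p = 0.0338). MACROH2A1, a variant with a large macrodomain, fell by 0.28 on the log2 scale. H2AZ1, found at promoters, had a log2 change of -0.17 and did not pass. Against normal growth, 4 of 15 passed, all lower (4.44% called lower over the array), adding H2AZ1 and MACROH2A2 to these genes.

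Most genes that make and process histone mRNA did not pass the test. Of 30 measured, 3 were called lower and 1 higher with metformin than in starvation (median log2 change -0.08). Over the array 1.98% were called lower and 2.3% higher. At an unadjusted p under 0.05 (limma), 15 of the 30 passed in either direction, against 8.63% lower and 11.3% higher over the array. SLBP had log2 signals of 9.99, 10.02 and 10.00 with metformin, against 10.17, 10.16 and 10.14 in starvation. The arrays did not overlap, but the log2 change of -0.15 (SE 0.049) had a limma adjusted p of 0.165. NPAT had log2 signals of 9.26, 9.22 and 9.03 with metformin, against 9.45, 9.25 and 9.28 in starvation (log2 change -0.16, limma adjusted p = 0.418), with overlapping groups. CASP8AP2, which encodes FLASH, and LSM11, a U7 snRNP protein, had log2 changes of -0.09 and -0.03 with limma adjusted p values of 0.730 and 0.825. The genes that passed included 2 regulators of entry into S phase. CCNE2, a cyclin E, had log2 signals of 8.58, 8.91 and 8.33 with metformin, against 9.87, 9.60 and 9.79 in starvation (log2 change -1.15, limma adjusted p = 0.0246). CDC25A, the phosphatase that activates CDK2, fell by 0.63 and CSTF2, a cleavage factor, by 0.39 on the log2 scale. The gene called higher was MIF4GD, whose product SLIP1 binds SLBP in histone mRNA translation. MIF4GD had log2 signals of 8.07, 7.92 and 8.04 with metformin, against 7.13, 6.93 and 7.14 in starvation (log2 change 0.94, SE 0.083, limma adjusted p = 0.0138).

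Histone chaperones carry new histones to DNA. Of 26 measured, 3 were called lower with metformin than in starvation and 0 higher (median log2 change -0.21). Over the array 1.98% were called lower and 2.3% higher. At an unadjusted p under 0.05 (limma), 16 passed in either direction, against 8.63% lower and 11.3% higher over the array. Against normal growth 10 were called lower and 0 higher, with 4.44% and 4.63% over the array. CHAF1A, the large subunit of chromatin assembly factor 1, NASP, an H3-H4 chaperone, and ASF1B, a histone carrier of proliferating cells, fell by 0.42, 0.41 and 0.32 on the log2 scale.

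Genes of DNA synthesis were lower with metformin as well. Of 29 measured, 17 were called lower with metformin than in starvation and 0 higher, with a median log2 change of -0.57. Against normal growth 22 were called lower and 0 higher. Over the array 1.98% and 4.44% were called lower in these comparisons. UHRF1, a factor of maintenance methylation, had log2 signals of 8.46, 8.79 and 8.47 with metformin, against 9.83, 9.81 and 9.89 in starvation (log2 change -1.27, limma adjusted p = 0.0119). MCM2 and MCM7, subunits of the replicative helicase, and TK1, thymidine kinase, fell by 0.91, 0.66 and 0.81 on the log2 scale. The log2 of the summed signal of this list lay between 14.2 and 14.3 on the metformin arrays and between 14.7 and 14.8 on the starvation arrays. Of 20 mitosis genes, 1 (CCNF) was called lower than in starvation, with a median log2 change of -0.12 (1.98% over the array). Against normal growth 12 were called lower (4.44% over the array). In starvation against normal growth 0 genes of any of these lists passed by limma. At an unadjusted p under 0.05, 8 of 29 DNA synthesis and 12 of 20 mitosis genes passed in either direction. Over the array 4.74% were lower and 3.3% higher at that threshold. The median log2 changes in this comparison were -0.06 for DNA synthesis and -0.20 for mitosis genes. The part of cell cycle distribution in the histone values was not tested.

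**Figure D5:**
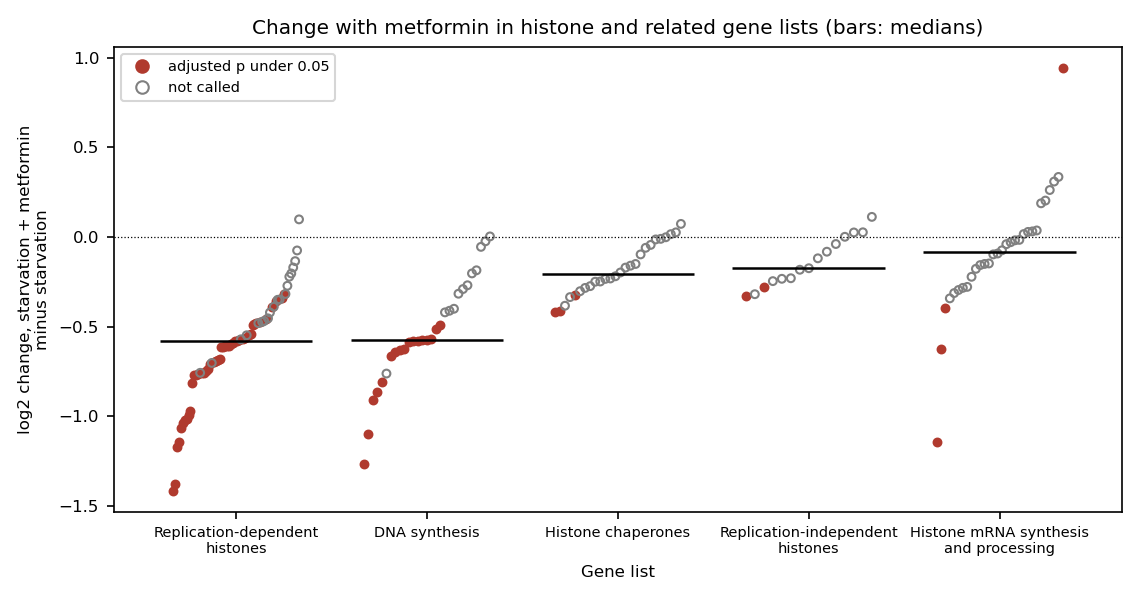
log2 change, starvation with metformin minus starvation (y axis), of the 66 distinct histone profiles and of the genes of 4 related lists (x axis); filled points passed an adjusted p under 0.05 (limma), open points did not, and bars are medians. The bars of the replication-dependent histones and of the DNA synthesis genes lie at -0.58 and -0.57, those of the other lists between -0.21 and -0.08.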

How the data were processed

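What the authors deposited is 1 log2 value per probe set and array, for 9 arrays. Affymetrix Expression Console, RMA and limma appear in the submitters' processing notes, and Affymetrix Power Tools in the methods, in each case without a version. RMA quantile normalizes the arrays and summarises probes by median polish, and the values were used as they are.

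Each comparison was fitted on its own 6 arrays without a block (lmFit and eBayes, limma 3.58.1, R 4.3.3), and p values were adjusted by Benjamini-Hochberg over all 33297 probe sets. Calls were made at an adjusted p under 0.05. The fit was tested on simulated data. Symbols came from the platform annotation, and all 67 member symbols were found in RefSeq by Entrez identifier. Genes of other lists were read from their brightest probe set with 1 symbol. A further 6 probe sets shared with genes outside the families were left out.

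The members and lists were chosen with earlier results of these data known. Named members were the 12 smallest adjusted p values among those called in each comparison (the 4 smallest p values where none was), the largest rise and fall of each family with metformin, and the brightest and dimmest member. Of the other lists, SLBP, NPAT, CASP8AP2 and LSM11 and up to 4 called genes per list were named. Alternatives were 1 fit over all arrays, a common array median, a second quantile normalization and exclusion of probe sets below the 40th percentile of mean signal. Others were exclusion of probe sets with several symbols, trend and robust eBayes, Student's t-test, a block for the replicate letter and omission of each array in turn. Counting identical probe sets once was added after seeing the data.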

Additional observations from a re-analysis of the deposited data

How the results depend on the processing

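With metformin against starvation, 49 of 70 members were called lower. All 9 arrays in 1 fit, a common array median, quantile normalization again or trend and robust options gave between 37 and 62 of 70. Without dim probe sets 58 of 64 members were called, and with 1 symbol only 48 of 56. Over the array these alternatives called 611 to 3368 probe sets in either direction. Student's t-test after Benjamini-Hochberg called 27 members and 650 probe sets over the array. Leaving out 1 array gave 0 to 37 calls among the members (0 to 1189 over the array) and medians of -0.63 to -0.54. Against normal growth 56 were called, with 25 to 52 (439 to 3734 over the array) and medians of -0.67 to -0.58 when 1 array was left out. In starvation against normal growth the median lay between -0.08 and -0.02 in such fits. No member was called higher, and none in starvation against normal growth, under any alternative. No source ties equal letters to the same experiment. Correlations of same-letter deviations (A, B and C) were 0.294, -0.137 and -0.249 for metformin and starvation, 0.0903, 0.134 and 0.024 for starvation and normal growth, and -0.0884, 0.00978 and -0.164 for metformin and normal growth, so the letters were not taken as pairs. With the replicate block 0 members were called in either metformin comparison, although 65 and 66 were lower at an unadjusted p under 0.05. That fit has fewer residual degrees of freedom, and 0 probe sets passed on the whole array. Of the 56 members called against normal growth, 23 passed in every fit that left out an array. For named probe sets, each in the comparison it was named for, 392 results over the alternatives kept their side of the threshold, 88 lost it and 5 gained it, with 0 changes of sign. Over all members, the sign held in every alternative for 70 of 70 with metformin against starvation, 69 of 70 with metformin against normal growth and 46 of 70 in starvation against normal growth. The number of arrays limits the precision, and 6 members had a mean log2 signal under 6.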

Other observations

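Probe sets that mix member genes with pseudogenes or other genes numbered 6 and were not counted. One shared by H2BC12, H2BC12L, H2BC17 and H2BC5 had log2 signals of 10.82, 10.83 and 10.95 with metformin, against 11.47, 11.39 and 11.49 in starvation (log2 change -0.58, limma adjusted p = 0.0172). H2BC18, an H2B gene with no probe set of its own, was measured only on 4 of these, with log2 changes of -0.22, -0.19, 0.12 and -0.21, none of which passed.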
